A study of Homo sapiens with 2 samples.

Results

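The 34 genes described here encode glucose and lactate transporters, glycolytic enzymes, regulators of fructose 2,6-bisphosphate, proteins of mitochondrial pyruvate entry and oxidation, and enzymes of the pentose phosphate pathway. They were chosen by name as members of these pathways, and all 34 were found by Ensembl identifier among the 57820 genes of the expected-count table. Glycolysis splits glucose into pyruvate in the cytosol, and pyruvate is then reduced to lactate and exported, or carried into mitochondria and oxidised to acetyl-CoA. The pentose phosphate pathway branches from glucose 6-phosphate: its oxidative steps make NADPH, and its non-oxidative steps make ribose 5-phosphate and return carbon to glycolysis. Colorectal carcinoma cells are known for high glucose use with lactate release.

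RNA came from HCT116, a human colorectal carcinoma line, in 2 libraries. The first was from a CREB1 knockout clone, made by transfecting cells with a plasmid that carried nickase Cas9 and guide RNAs against CREB1 and keeping 1 clone, raised from a lone cell, that the labels describe as lacking CREB1 entirely. The second was from HCT116 cells with wild-type CREB1, and the labels do not say whether these were a clone. CREB1 is the cAMP-responsive activator of transcription, and the comparison asks how transcript levels differ without it. Both cultures were kept in DMEM with fetal bovine serum and antibiotics. With 1 library per genotype, the effect of losing CREB1, differences between this clone and the wild-type culture, and differences between library preparations cannot be told apart. No p-value can be given.

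The expected counts, which are estimates of reads per gene, summed to 31178312 in the knockout library and 34511071 in the wild-type library. Levels are given below as CPM, counts relative to library size scaled by the TMM method, and ratios as log2 of knockout over wild-type. Each ratio carries a 95% interval for counting error only, and a gene is called higher or lower where that interval excludes no difference. CREB1 itself had 499 counts in the knockout and 614 in the wild-type library (log2 ratio -0.23, interval -0.40 to -0.05). Such a count cannot show a small deletion, so it does not check the genotype. The epithelial genes EPCAM, CDH1, KRT8, KRT18, KRT19 and CDX2 were expressed at a mean of at least 1 CPM, and the other 5 of 11 epithelial markers, KRT20, CDX1, VIL1, LGALS4 and CDH17, were not, with CDX1 at 0 in both libraries. Summed, all 11 had 3521 CPM in the knockout and 4019 CPM in the wild-type library. The 4 leukocyte markers summed to 3 counts in the knockout and 0 in the wild-type library. The 2 endothelial markers matched summed to 17 counts in each library. Of 5 fibroblast markers, COL1A1 was expressed, with 89 counts in the knockout and 83 in the wild-type library, and the others had 5 counts or fewer.

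All 34 genes passed the expression threshold of a mean of 1 CPM, as did 12886 genes in the whole table. The log2 ratio was below 0 for 28 of the 34, against 48.8% of all expressed genes. In the knockout library 25 of the 34 were lower and 6 were higher, and for PKM, PFKFB4 and PDK2 the interval included no difference. Among all expressed genes 25.5% were lower and 26.4% higher by the same rule. Abundant genes have narrow intervals and pass this rule at small ratios. Among the 868 genes with a mean of at least 100 CPM, 48.5% were lower and 34.1% higher, and of the 16 genes described here at that level 10 were lower (62.5%) and 5 higher. The differences were small. The median log2 ratio of the 34 genes was -0.18 (quartiles -0.33 and -0.07), beside 0.01 for all expressed genes (quartiles -0.20 and 0.21). The range ran from -0.82 for ALDOC to 0.33 for SLC2A1. In these bulk cultures a lower level can mean fewer cells with the transcript or less of it per cell, and these cannot be told apart.

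At a threshold of 1.2-fold with the interval excluding no difference, 15 of the 34 genes were lower (44.1%) and 1 was higher, against 16.1% and 17.5% of all expressed genes. Of the 16 described genes with a mean of at least 100 CPM, 3 were lower and 1 higher. Of all 868 genes at that level, 130 were lower and 88 higher. With scaling by total counts the split of the 34 genes was 9 lower and 2 higher, against 11.6% and 23.8% of all expressed genes under that scaling. HK1, PFKFB2, PGK1, ENO1, TALDO1 and RPIA were the genes that no longer passed as lower. At 1.5-fold, 4 were lower (ALDOC, SLC2A3, PDK3 and MPC1) and 0 higher, against 5.5% and 5.25% of all expressed genes. At 2-fold, 0 were lower and 0 higher, against 1.64% and 1.28%. Together the 34 genes held 1.13% of all counts in the knockout library and 1.13% in the wild-type library. GAPDH, PKM and ENO1, the genes with the most counts among them, set most of that sum.

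**Figure D1:**
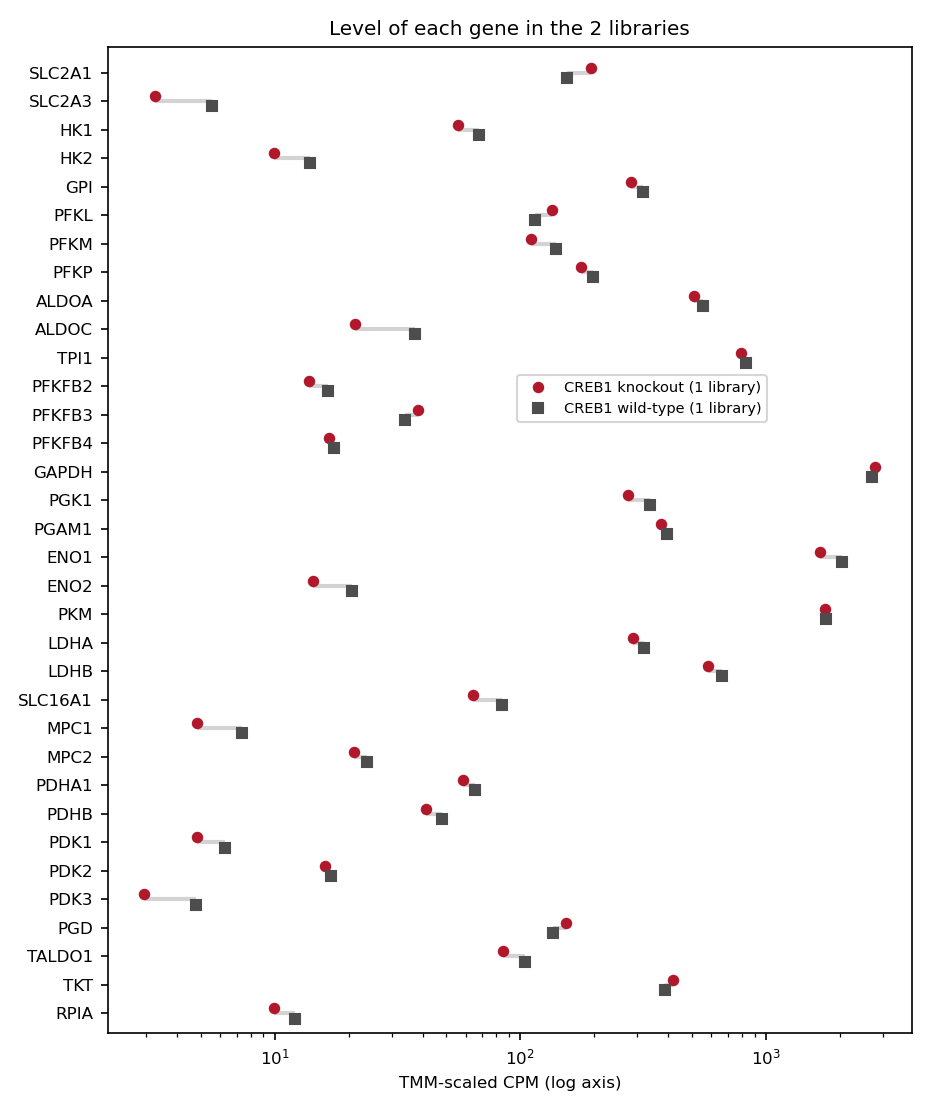
TMM-scaled CPM on a log axis for each of the 34 genes, ordered by role, with the knockout library as red circles and the wild-type library as dark squares (1 library each). Levels run from 2.94 CPM for PDK3 in the knockout to 2794 CPM for GAPDH in the knockout, and most red circles lie left of their squares.

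**Figure D2:**
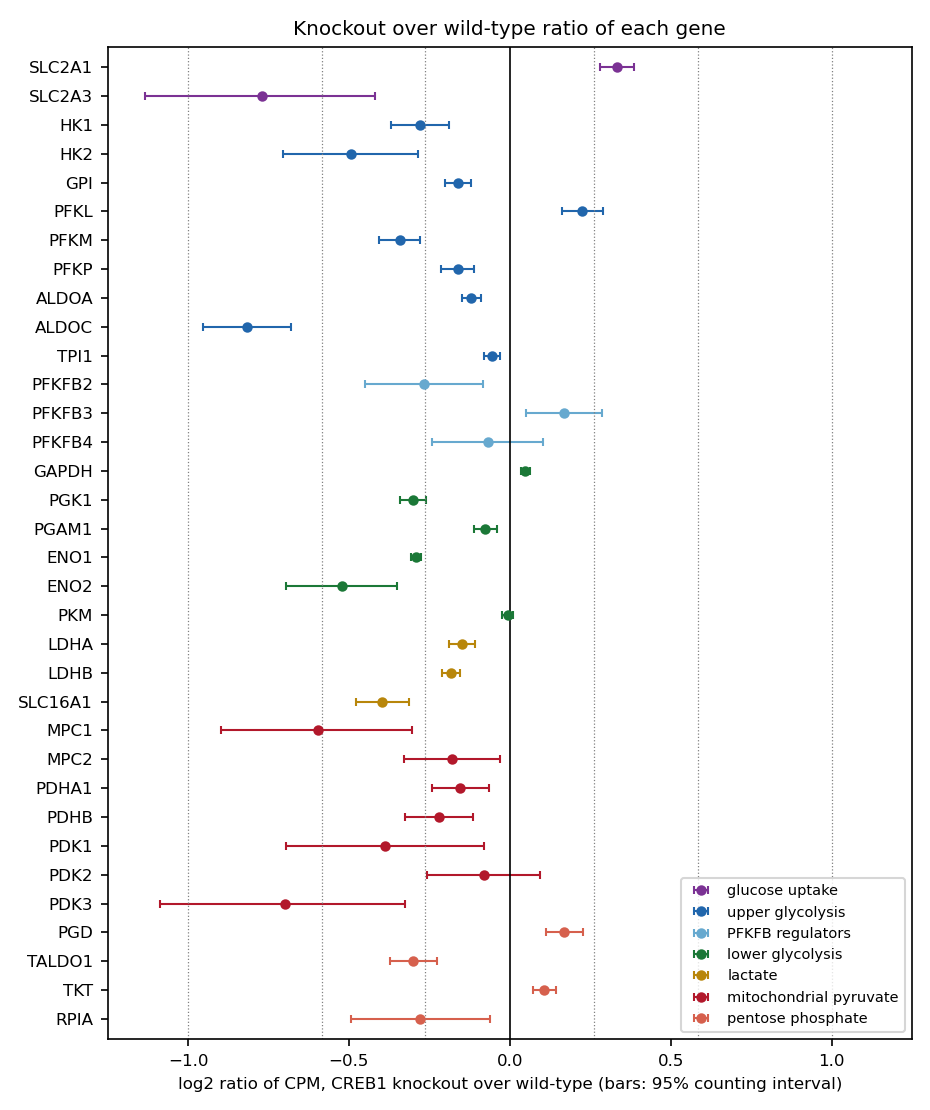
Log2 ratio of knockout over wild-type for each gene, with 95% counting intervals, coloured by role. Dotted lines mark 1.2-fold, 1.5-fold and 2-fold in each direction, and SLC2A1, PFKL, PFKFB3, GAPDH, PGD and TKT are the 6 genes whose intervals lie above 0.

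The glucose transporters of the plasma membrane went in opposite directions. SLC2A1 (GLUT1), the widespread basal glucose transporter, had 6221 counts or 195 CPM in the knockout library and 5198 counts or 154 CPM in the wild-type library. It was 1.26-fold higher (log2 ratio 0.33, interval 0.28 to 0.39), the highest ratio of the 34 genes. SLC2A3 (GLUT3), the high-affinity transporter best known from neurons, had 104 counts in the knockout and 187 in the wild-type library, or 3.25 and 5.56 CPM. It was 1.71-fold lower (log2 ratio -0.77, interval -1.13 to -0.42). Per kilobase of transcript, SLC2A1 stood at 63.8 times SLC2A3 in the knockout and 29.7 times in the wild-type library. That ratio was 2.15-fold larger in the knockout (log2 difference 1.11, interval 0.75 to 1.47). SLC2A3 has close copies, though its own expected counts were whole numbers in both libraries. Its paralog SLC2A14 had 0 counts in both libraries, and processed pseudogenes named after SLC2A3 had 90.6 expected counts in the knockout and 118 in the wild-type library. With their counts added, the SLC2A3 log2 ratio was -0.57 (interval -0.84 to -0.31), which no longer reached 1.5-fold. There were then 31.9 SLC2A1 counts per SLC2A3 count in the knockout and 17.0 in the wild-type library, against 59.8 and 27.8 without the pseudogenes. The log2 difference with them was 0.90 (interval 0.63 to 1.18).

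Hexokinases, which phosphorylate glucose and so trap it in the cell, were both lower. HK1 had 1791 counts in the knockout and 2285 in the wild-type library (log2 ratio -0.28, interval -0.37 to -0.19). HK2, the inducible isoform linked to glucose use by tumours, had 317 counts in the knockout and 470 in the wild-type library (-0.49, interval -0.70 to -0.29). HK1 was the more abundant isoform in both. Per kilobase of its principal transcript, the HK1 level was 15.5 CPM in the knockout and 18.8 CPM in the wild-type library, beside 1.72 and 2.42 CPM per kilobase for HK2. The HK2 to HK1 balance had a log2 difference of -0.22 between libraries, whose interval (-0.45 to 0.01) included no difference. GPI, which turns glucose 6-phosphate into fructose 6-phosphate, was 283 CPM in the knockout and 316 CPM in the wild-type library (-0.16, interval -0.20 to -0.12).

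The 3 phosphofructokinase genes, which encode subunits of the committed enzyme of glycolysis, differed in direction. PFKL, the liver-type subunit, had 4289 counts in the knockout and 3861 in the wild-type library, and was higher (log2 ratio 0.23, interval 0.16 to 0.29). PFKM, the muscle-type subunit, had 3542 counts in the knockout and 4725 in the wild-type library, and was lower (-0.34, interval -0.41 to -0.28). PFKP, the platelet-type subunit, had 5641 counts in the knockout and 6638 in the wild-type library (-0.16, interval -0.21 to -0.11). The rank of PFKM and PFKL therefore changed between libraries. Per kilobase of transcript, PFKM stood at 0.746 of PFKL in the knockout and at 1.11 of PFKL in the wild-type library. The balance differed by -0.57 in log2 (interval -0.66 to -0.48), a value that does not depend on how the libraries are scaled. PFKP was the most abundant subunit per kilobase in both, at 66.5 CPM per kilobase in the knockout and 74.3 in the wild-type library, and its balance to PFKL was lower too (-0.39, interval -0.47 to -0.30). The summed counts of the 3 genes differed less than the single genes, with 421 CPM in the knockout and 452 CPM in the wild-type library (log2 ratio -0.10). The opposite-strand gene SENP1, whose exons overlap those of PFKM, had 363 counts in the knockout and 308 in the wild-type library. The sources used here do not give the strand setting of the counting.

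The PFKFB genes encode bifunctional enzymes that make and remove fructose 2,6-bisphosphate, the activator of phosphofructokinase. PFKFB3, the isoform with the highest kinase activity relative to its phosphatase, had 1221 counts in the knockout and 1144 in the wild-type library (log2 ratio 0.17, interval 0.05 to 0.29). PFKFB2 had 439 counts in the knockout and 556 in the wild-type library (-0.27, interval -0.45 to -0.08). YOD1, on the opposite strand and overlapping PFKFB2 exons, had a log2 ratio of -0.44, with 419 counts in the knockout and 600 in the wild-type library. PFKFB4 had 532 counts in the knockout and 587 in the wild-type library, and its interval included no difference (-0.07, -0.24 to 0.10). PFKFB3 stood at 2.78 counts per PFKFB2 count in the knockout and 2.06 in the wild-type library (log2 difference 0.43, interval 0.22 to 0.65). The sum of the 3 genes was 68.5 CPM in the knockout and 68.0 CPM in the wild-type library (log2 ratio 0.01, interval -0.07 to 0.10).

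Aldolases cleave fructose 1,6-bisphosphate. ALDOC, the brain-type isoform, had the lowest ratio of the 34 genes, with 677 counts or 21.2 CPM in the knockout and 1254 counts or 37.3 CPM in the wild-type library. It was 1.76-fold lower (log2 ratio -0.82, interval -0.95 to -0.68), and 2.73% of expressed genes had a ratio at or below this value. ALDOA, the main isoform, had 16371 counts in the knockout and 18711 in the wild-type library (-0.12, interval -0.15 to -0.09). ALDOC held 3.24% of aldolase transcripts per kilobase in the knockout and 5.14% in the wild-type library, and its balance to ALDOA differed by -0.70 (interval -0.84 to -0.56). ALDOC lies on chromosome 17, where the 50 nearest expressed protein-coding genes had a median log2 ratio of 0.02. TPI1, which interconverts the triose phosphates, had 795 CPM in the knockout and 826 CPM in the wild-type library. Its log2 ratio was -0.06 (interval -0.08 to -0.03) with TMM scaling but 0.017 with total-count scaling, so its direction depends on the scaling.

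The lower part of glycolysis, from glyceraldehyde 3-phosphate to pyruvate, held the genes with the most counts, and its neighbouring steps differed. GAPDH had 2794 CPM in the knockout and 2702 CPM in the wild-type library (log2 ratio 0.05, interval 0.04 to 0.06). PGK1, the first ATP-forming enzyme, was on chromosome X and had 8790 counts in the knockout and 11389 in the wild-type library (-0.30, interval -0.34 to -0.26). PGAM1, a phosphoglycerate mutase, had 375 CPM in the knockout and 395 CPM in the wild-type library (-0.08, interval -0.11 to -0.04, but -0.0029 with total-count scaling). ENO1, the ubiquitous enolase, had 53359 counts in the knockout and 68720 in the wild-type library (-0.29, interval -0.31 to -0.28). ENO2, the neuronal enolase, had 460 counts in the knockout and 695 in the wild-type library (-0.52, interval -0.69 to -0.35). PKM, the pyruvate kinase of most tissues and tumours, had 1749 CPM in the knockout and 1757 CPM in the wild-type library (-0.01, interval -0.02 to 0.01). The PKM result depends on the scaling. It was higher with total-count scaling (0.07, interval 0.05 to 0.08) and lower with DESeq2 scaling (-0.03, interval -0.04 to -0.01).

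Ratios between these enzymes do not depend on library scaling, and the pairs of neighbouring steps were chosen after their values were seen. ENO1 stood at 0.597 of the GAPDH count in the knockout and 0.756 in the wild-type library (log2 difference -0.34, interval -0.36 to -0.32). PGK1 stood at 0.0984 of the GAPDH count in the knockout and 0.125 in the wild-type library (-0.35, interval -0.39 to -0.31). PKM had 1.05 counts per ENO1 count in the knockout and 0.860 in the wild-type library (0.29, interval 0.26 to 0.31). ENO1 was thus lower relative to both GAPDH and PKM. GAPDH, TPI1, PGAM1, GPI and LDHA had expected counts that were not whole numbers, as reads divided between similar genes leave them. The processed pseudogenes named after any of the 34 genes other than SLC2A3 held at most 0.335% of that gene's counts in either library.

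**Figure D3:**
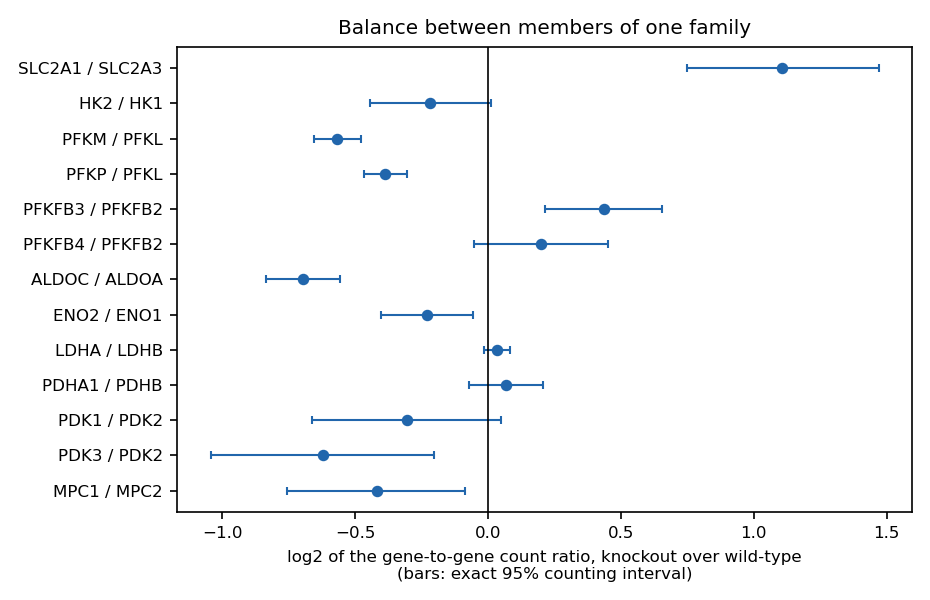
Log2 of the count ratio between members of one family, knockout over wild-type, with exact 95% counting intervals. Of the 13 pairs, 6 lie below 0 (PFKM and PFKP to PFKL, ALDOC to ALDOA, ENO2 to ENO1, PDK3 to PDK2, MPC1 to MPC2), 2 above 0 and 5 include 0.

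Lactate dehydrogenase interconverts pyruvate and lactate. LDHA, the muscle-type subunit that favours lactate formation, had 9192 expected counts or 287 CPM in the knockout and 10732 or 319 CPM in the wild-type library (log2 ratio -0.15, interval -0.19 to -0.11). LDHB, the heart-type subunit, had 18623 counts or 582 CPM in the knockout and 22249 counts or 661 CPM in the wild-type library (-0.18, interval -0.21 to -0.16). Both were lower by nearly the same amount. There were 0.494 LDHA counts per LDHB count in the knockout and 0.482 in the wild-type library, and the interval of the log2 difference, -0.02 to 0.08, included no difference. SLC16A1 (MCT1), a proton-coupled lactate transporter, had 2054 counts in the knockout and 2845 in the wild-type library. It was 1.32-fold lower (-0.40, interval -0.48 to -0.31).

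Promoter sequences were examined for the letters that CREB1 binds, because LDHA is a textbook gene with a cAMP response element. RefSeq promoter windows of 300 bases, 250 before to 50 after the transcription start on GRCh38.p14, were at hand for 31 of the 34 genes. The full element TGACGTCA, its core TGACG, the E-box CACGTG bound by MYC and related factors, and the pentamers ACGTG and GCGTG that form the core of hypoxia response elements were searched on both strands. TGACGTCA contains the core, and CACGTG contains ACGTG. The 250 bases before the start are shown for LDHA, with the full element, for its partner LDHB, and for the genes with the lowest and the highest ratio, ALDOC and SLC2A1. They lie at chr11:18394313-18394562 (plus strand) for LDHA, chr12:21657843-21658092 (minus strand) for LDHB, chr17:28576896-28577145 (minus strand) for ALDOC and chr1:42958869-42959118 (minus strand) for SLC2A1. Capitals mark the letters searched, and each sequence ends at the base before the start.
LDHA: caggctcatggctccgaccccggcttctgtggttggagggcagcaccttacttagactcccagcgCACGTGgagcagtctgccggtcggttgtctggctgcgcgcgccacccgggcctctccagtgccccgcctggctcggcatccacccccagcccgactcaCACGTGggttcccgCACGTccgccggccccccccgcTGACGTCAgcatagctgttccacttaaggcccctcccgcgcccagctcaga
LDHB: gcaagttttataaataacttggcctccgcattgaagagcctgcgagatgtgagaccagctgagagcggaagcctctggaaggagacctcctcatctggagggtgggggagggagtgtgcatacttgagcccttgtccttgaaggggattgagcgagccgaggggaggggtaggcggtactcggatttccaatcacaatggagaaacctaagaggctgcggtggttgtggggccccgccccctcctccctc
ALDOC: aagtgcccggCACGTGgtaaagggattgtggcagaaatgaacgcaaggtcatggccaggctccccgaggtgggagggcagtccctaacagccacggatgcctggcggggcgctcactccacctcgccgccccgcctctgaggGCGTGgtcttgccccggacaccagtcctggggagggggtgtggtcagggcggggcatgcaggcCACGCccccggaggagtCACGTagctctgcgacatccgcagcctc
SLC2A1: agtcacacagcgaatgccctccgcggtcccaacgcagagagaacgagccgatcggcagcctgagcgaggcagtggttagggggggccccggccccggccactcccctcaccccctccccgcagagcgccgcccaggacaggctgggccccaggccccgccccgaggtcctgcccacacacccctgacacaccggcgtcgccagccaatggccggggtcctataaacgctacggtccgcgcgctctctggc

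LDHA was the 1 gene of the 31 with the full element (3.23%, against 2.25% of all genes), which began 51 bases before the start. Per window, 1.75% of the windows of these genes held it, against 1.85% of all 35116 RefSeq promoter windows. LDHA also had E-boxes that began 185 and 87 bases before the start. The stretches shown for LDHB and SLC2A1 held none of the searched letters. Both genes, and LDHA, had GCGTG in a part of their windows that is not shown. The ALDOC stretch held an E-box 240 bases before the start and GCGTG on either strand 108 and 45 bases before it. It also held ACGTG on the minus strand 28 bases before the start, and no TGACG. The gene with the full element, LDHA, and its partner without it had log2 ratios of -0.15 and -0.18. TGACG was found in windows of 10 of the 31 genes (32.3%), against 28.4% of all genes with a window. Per window the order was reversed, with TGACG in 19.3% of the 57 windows of these genes and 24.6% of all windows. The median log2 ratio was -0.16 for those 10 and -0.18 for the other 21. ACGTG was found for 17 of the 31 (54.8%, against 24.9% of all genes) and CACGTG for 8 (25.8%, against 8.77%). GCGTG was found for 22 (71%, against 40.6%), where the comparison set includes noncoding and silent genes. Per window the shares were 36.8% against 21.4% for ACGTG, 14% against 7.26% for CACGTG and 45.6% against 36.5% for GCGTG. Median log2 ratios with and without the letters were -0.16 and -0.17 for ACGTG, -0.13 and -0.18 for CACGTG, and -0.17 and -0.16 for GCGTG. Genes with several start sites have several windows. A match of letters does not show that a factor bound there in these cells.

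All 7 described genes of mitochondrial pyruvate use had log2 ratios below 0, against 48.8% of all expressed genes. The interval excluded no difference for 6 of them, against 25.5% lower among all expressed genes. With total-count scaling the interval did so for 4 of the 7. Other pyruvate genes were more mixed: of 11 expressed, 6 were lower and 3 higher by the interval. MPC1 and MPC2 form the carrier that takes pyruvate across the inner mitochondrial membrane. MPC1 had 155 counts or 4.85 CPM in the knockout and 247 counts or 7.34 CPM in the wild-type library. It was 1.51-fold lower (log2 ratio -0.60, interval -0.90 to -0.30), just past the 1.5-fold threshold. It fell short of that threshold with total counts (-0.52), with totals that left out the 5 highest genes (-0.56), after centring on neighbouring genes (-0.57) and after the GC and length correction (-0.49). MPC2 had 672 counts in the knockout and 801 in the wild-type library (-0.18, interval -0.33 to -0.03). The balance of MPC1 to MPC2 was lower in the knockout (log2 difference -0.42, interval -0.75 to -0.09). DCAF6, on the opposite strand and overlapping MPC2 exons, had 1014 counts in the knockout and 1041 in the wild-type library.

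The pyruvate dehydrogenase E1 subunits had similar ratios. PDHA1, the alpha subunit that the kinases phosphorylate, had 1877 counts in the knockout and 2197 in the wild-type library (log2 ratio -0.15, interval -0.24 to -0.06). PDHB, the beta subunit, had 1316 counts in the knockout and 1613 in the wild-type library (-0.22, interval -0.33 to -0.11). Their balance had a log2 difference of 0.07, whose interval (-0.07 to 0.21) included no difference. With total-count scaling the intervals of PDHA1, MPC2, RPIA, PGAM1 and TPI1 included no difference.

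The pyruvate dehydrogenase kinases inactivate the complex. PDK3 had 94 counts or 2.94 CPM in the knockout and 161 counts or 4.78 CPM in the wild-type library, and was 1.62-fold lower (log2 ratio -0.70, interval -1.09 to -0.33). PDK1, a hypoxia-inducible kinase, had 154 counts in the knockout and 212 in the wild-type library (-0.39, interval -0.70 to -0.08). After centring on neighbouring genes its interval included no difference (-0.30, -0.61 to 0.0028). PDK2 had 511 counts in the knockout and 569 in the wild-type library, and its interval included no difference (-0.08, -0.26 to 0.09). The balance within the family differed, since PDK3 stood at 0.184 of the PDK2 count in the knockout and at 0.283 in the wild-type library (log2 difference -0.62, interval -1.04 to -0.20). The corresponding difference for PDK1 was -0.31 (interval -0.66 to 0.05), which included no difference.

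The 4 pentose phosphate genes differed in direction. PGD, the second NADPH-forming dehydrogenase of the oxidative branch, had 4895 counts in the knockout and 4580 in the wild-type library (log2 ratio 0.17, interval 0.11 to 0.23). TKT, transketolase, had 13330 counts in the knockout and 13023 in the wild-type library (0.11, interval 0.07 to 0.14). TALDO1, transaldolase, had 2707 counts in the knockout and 3506 in the wild-type library (-0.30, interval -0.37 to -0.23). RPIA, which makes ribose 5-phosphate, had 319 counts in the knockout and 407 in the wild-type library (-0.28, interval -0.49 to -0.06). TKT and TALDO1, the partners of the non-oxidative branch, thus parted. There were 4.92 TKT counts per TALDO1 count in the knockout and 3.71 in the wild-type library (log2 difference 0.41, interval 0.33 to 0.49), a pair chosen after its values were seen.

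Of 10 other genes of the pathway, 8 were expressed, and 2 were higher and 1 was lower at the 1.2-fold threshold, against 17.5% and 16.1% of all expressed genes. None of the 8 passed 1.5-fold, and the genes of this list named here were chosen after their values were seen. H6PD, the dehydrogenase of the endoplasmic reticulum, had 775 counts in the knockout and 603 in the wild-type library (log2 ratio 0.44, interval 0.28 to 0.59). The lactonase PGLS, which acts just before PGD, had 761 counts in the knockout and 720 in the wild-type library (0.15, interval 0.0045 to 0.30). That lower bound is nearer 0 than the shift of -0.02 that DESeq2 scaling gave the median of all expressed genes, so the PGLS call depends on the scaling. PRPS1 and PRPS2, which turn ribose 5-phosphate into the precursor of nucleotides, were lower, at -0.24 (interval -0.36 to -0.13) and -0.32 (interval -0.45 to -0.20). The median over the 8 was 0.06, beside 0.01 for all expressed genes.

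**Figure D4:**
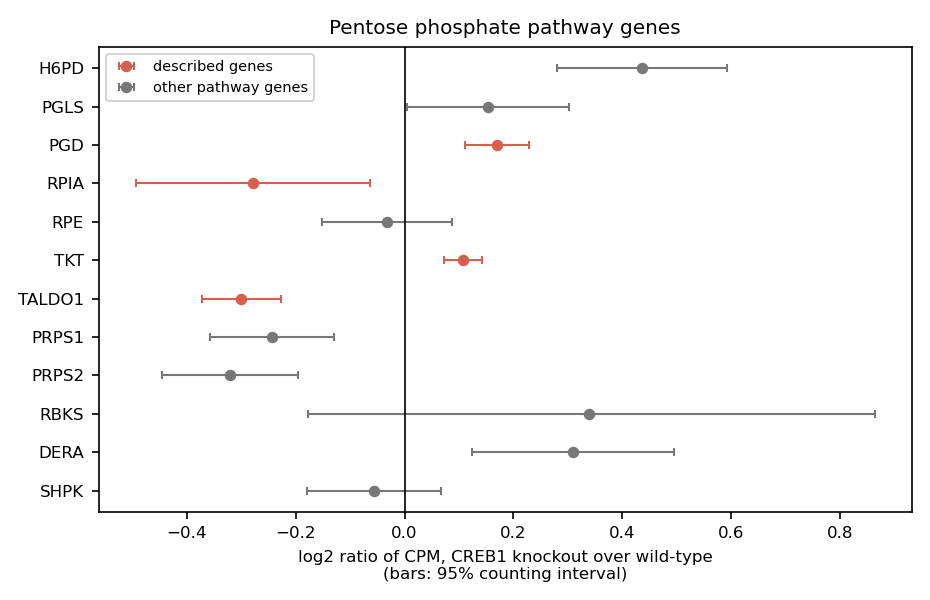
Log2 ratio of knockout over wild-type, with 95% counting intervals, for the 4 described pentose phosphate genes (red) and 8 other expressed genes of the pathway (grey). H6PD is the highest at 0.44, and the intervals of RPIA, TALDO1, PRPS1 and PRPS2 lie below 0.

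**Figure D5:**
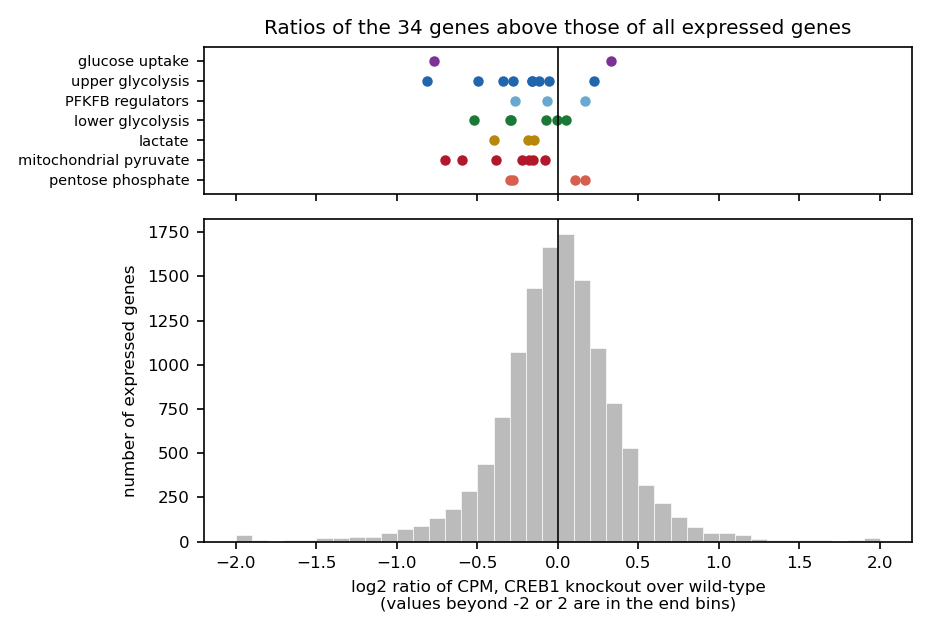
Upper panel, log2 ratios of the 34 genes by role. Lower panel, number of expressed genes (of 12886) per bin of log2 ratio. All 7 described genes of mitochondrial pyruvate use and all 3 described lactate genes lie left of 0, while the median of all expressed genes is 0.01.

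The ratios of neighbouring genes on the chromosomes were also examined. The median log2 ratio of the 50 expressed protein-coding genes nearest to each of the 34 genes lay between -0.09 (PFKFB3) and 0.10 (PGK1). After that local median was taken off, the log2 ratio was -0.84 for ALDOC and SLC2A3, -0.74 for PDK3, -0.57 for MPC1 and 0.26 for SLC2A1. The median of the 34 genes was then -0.17.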

How the data were processed

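Gene counts from 1 knockout and 1 wild-type library were analysed. Per the labels, total RNA was depleted of ribosomal RNA and made into strand-specific paired-end libraries. The authors deposited expected counts per gene, unscaled. The submitters' processing notes name cutadapt 2.0, STAR 2.4.2a, RSEM 1.2.26 and hg19. The annotation, strand setting and filters were not given in the sources used here. Genes were named from GENCODE release 29, which matched 90.5% of identifiers. The unmatched identifiers held 35.2% of counts in the knockout and 37.0% in the wild-type library, and stayed in the library totals.

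Expected counts were rounded, scaled with TMM in edgeR 4.0.16 (R 4.3.3) and turned into log2 ratios with a prior count of 0.5. Intervals are exact 95% Clopper-Pearson intervals of the 2 counts, or exact conditional intervals of an odds ratio between genes. They cover counting error only and treat reads as independent molecules. Levels per kilobase use the GENCODE principal transcript. The calculation was tested on simulated Poisson counts, which follow the counting error that the intervals assume. That check does not cover variation between cultures or library preparations. Promoters came from RefSeq (GRCh38.p14).

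The 34 genes, the lists and the tests were chosen with earlier results of these data known. All 34 are given, with both genes of each of 13 pairs. Of each other list, expressed genes past 1.5-fold are named, at most 4 by size, and others are marked. Some items are not reported here and were left out of the lists. Alternatives were total-count and DESeq2 1.42.0 scaling, totals without the 5 highest genes, other expression filters, a prior count of 2, pseudogene counts added, local centring, and removal of the GC and length trend.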

Additional observations from a re-analysis of the deposited data

How the results depend on the processing

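The median log2 ratio of the 34 genes lay between -0.20 and -0.11 under every alternative run, and their mean was -0.21. The number at least 1.2-fold lower, 15, was 9 with total-count scaling and 9 with totals that left out the 5 highest genes. The number at least 1.2-fold higher, 1, was 2 under each of those scalings, where PFKL joined SLC2A1, and 0 after centring on neighbouring genes. The number at least 1.5-fold lower, 4, was 2 at a mean CPM of at least 5, because SLC2A3 and PDK3 did not pass that filter. It was 3 with pseudogene counts added, where SLC2A3 was lost, and 3 with total counts, with totals without the 5 highest genes, after centring and after the GC and length correction, where MPC1 was lost. Total counts raised the median of all expressed genes by 0.07 and made 67.2% of all calls at 1.2-fold higher, against 52.1% with TMM. The ratio of TPI1 was positive with total counts (0.017) and after the GC and length correction (0.0031). Of 318 single-gene and pair values recomputed, 276 stayed within their counting interval, 40 moved outside it and 2, both of TPI1, changed sign after a call. Many of the 276 could not move, since expression filters leave a ratio unchanged and most pseudogene sums added 0 counts. With total-count scaling, 16 of the 34 gene ratios moved outside their interval and 1 changed sign after a call. Adding SLC2A14 counts, an alternative chosen after seeing the data, left the SLC2A3 ratio at -0.77. It could not do otherwise, since SLC2A14 had 0 counts in both libraries. No paired analysis was possible because each genotype had 1 library, and no library could be left out. Depth limits MPC1, PDK1, PDK3 and SLC2A3 most, with 94 to 247 counts.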

Other observations

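Among the other expressed genes listed for these pathways, HKDC1, ENO3 and SLC16A3 had log2 ratios further from 0 than ALDOC. Of 34 other glycolysis genes and isoforms, 16 were expressed, with a median log2 ratio of -0.24. At 1.2-fold, 7 were lower and 4 higher, against 16.1% and 17.5% of all expressed genes. HKDC1, a putative hexokinase, had 146 counts in the knockout and 47 in the wild-type library (log2 ratio 1.70, interval 1.23 to 2.22). ENO3, the muscle enolase, had 155 counts in the knockout and 79 in the wild-type library (1.04, interval 0.65 to 1.46). These isoforms therefore went opposite to HK1, HK2, ENO1 and ENO2, at lower counts. The lactate exporter SLC16A3 (MCT4) had 5911 counts in the knockout and 12434 in the wild-type library (-0.999, interval -1.04 to -0.95), and its 50 neighbours on chromosome 17 had a median log2 ratio of -0.53, whose part in the result was not tested. SLC2A12, a glucose transporter, had 54 counts in the knockout and 94 in the wild-type library (-0.72, interval -1.24 to -0.23).

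Of 17 other pyruvate genes 11 were expressed, with a median log2 ratio of -0.14. At 1.2-fold, 2 were lower and 1 higher, against 16.1% and 17.5% of all expressed genes. By the interval alone, 6 were lower and 3 higher, against 25.5% and 26.4%. The 3 higher genes, named after their values were seen, were PDHX (0.33, interval 0.20 to 0.46), PC (0.26, interval 0.04 to 0.48) and PDPR (0.16, interval 0.04 to 0.28). PCK2, the mitochondrial PEP carboxykinase, had 318 counts in the knockout and 548 in the wild-type library (-0.71, interval -0.92 to -0.51). All 19 tricarboxylic acid cycle genes were expressed, with a median of 0.00, 3 lower and 4 higher at 1.2-fold, shares near the 16.1% and 17.5% of all expressed genes. SDHB, the iron-sulfur subunit of succinate dehydrogenase, had 1627 counts in the knockout and 2577 in the wild-type library (-0.59, interval -0.68 to -0.50).

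Of 9 expressed regulators of glucose metabolism, 5 were lower and 2 higher at 1.2-fold, against 16.1% and 17.5% of all expressed genes, with a median of -0.39. MYC, which activates many glycolysis genes, had 59.1 CPM in the knockout and 129 CPM in the wild-type library (-1.12, interval -1.20 to -1.05). ARRDC4, a glucose-responsive arrestin that limits glucose uptake, had 23 counts in the knockout and 77 in the wild-type library (-1.65, interval -2.41 to -0.98). HIF1A, the oxygen-regulated subunit of the hypoxia factor, had 3186 counts in the knockout and 2185 in the wild-type library (0.62, interval 0.54 to 0.70). ARNT, its constitutive partner, had 368 counts in the knockout and 584 in the wild-type library (-0.59, interval -0.78 to -0.40). Whether any of these levels bears on the 34 genes was not tested.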
